A study of Homo sapiens with 14 samples.

Results

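REPAIR.t1 with the EZH2_A22 guide was compared with REPAIR.t1 with the NT guide, by the list of A-to-G sites deposited for each of 4 RNA libraries. The members are every site in those lists, keyed by chromosome and position, with no minimum level. There were 10648 distinct sites, or 40.7% of the 26172 distinct sites in the 14 libraries of the series, which also holds the editors REPAIRv2, dCas13d-ADAR and DECOR. All 4 libraries came from HEK293T, an established human embryonic kidney line that takes up foreign DNA readily, and all carried the REPAIR.t1 editor. The groups were REPAIR.t1 EZH2_A22 (2 libraries, replicates 1 and 2) and REPAIR.t1 NT (2 libraries, replicates 1 and 2). The titles give the guide as the only difference between them. All 4 were made from polyadenylated RNA and read for 25 cycles in read 1 and 97 in read 2. What NT and A22 stand for is not in the labels, nor is a time or dose of the editor. The series holds no library without an editor, so no list shows which of these sites would be there without REPAIR.t1. Nor do the labels say that the replicates came from separate cultures, so a p-value here covers library-to-library spread alone, possibly technical.

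Adenosine deaminases acting on RNA (ADARs) convert adenosine to inosine, which the ribosome and the sequencer both read as guanosine. In its published form REPAIR.t1 joins the deaminase domain of ADAR2 to a compact, catalytically inactive Cas13b protein, and a guide RNA brings the fusion to a chosen transcript. Such a deaminase can also act on RNA that the guide does not match, which leaves A-to-G sites across the transcriptome. A guide meant for 1 transcript is set against a control guide to ask whether those sites depend on the guide. EZH2, the gene named in the guide's label, encodes the methyltransferase subunit of the Polycomb repressive complex PRC2 and lies on chromosome 7. Every site below is given by its hg19 (GRCh37) position. Genes, exons, strand and neighbouring bases of the sites, and so the guide's target adenosine itself, were not analysed here, for want of a genome of that build.

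With the EZH2_A22 guide REPAIR.t1 listed slightly more sites, and they were slightly more highly edited. The EZH2_A22 libraries listed 4764 and 4784 sites, against 4683 and 4356 in the NT libraries. The EZH2_A22 lists were both longer than the NT lists, and the shortest list, NT replicate 2, stood apart from the other 3. The ratio of geometric means was 1.06 (two-sided exact permutation p = 0.333, n = 2 and 2). Without NT replicate 2 the ratio was 1.02, so most of the excess in sites rests on that library. An arrangement of 2 libraries against 2 cannot give an exact p below 0.333, so no difference in a single value per library could pass 0.05 in this comparison. The lists give no read counts or coverage, so depth is unknown. Absence from a list can mean no editing, a level under the authors' cut or few reads.

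The editing level of a site is its A-to-G rate, the fraction from 0 to 1 in the authors' list. The median level over a library's own list was 0.261 and 0.263 in the EZH2_A22 libraries, against 0.250 and 0.250 in the NT libraries. The difference of 0.0120 had an exact permutation p of 0.333, the smallest possible. The upper part of the range showed the same order. Highly edited sites, at 0.5 or more, made up 4.74% and 5.08% of the EZH2_A22 lists (226 and 243 sites), against 4.33% and 4.27% of the NT lists (203 and 186 sites). The share averaged 4.91% ± 0.237 with EZH2_A22 and 4.30% ± 0.0459 with NT (SD, n = 2 each). At 0.4 or more the shares were 14.5% and 15.03% with EZH2_A22, against 13.3% and 12.9% with NT. In each of these measures both EZH2_A22 libraries lay above both NT libraries, and the gap in shares was under 2 percentage points.

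**Figure D1:**
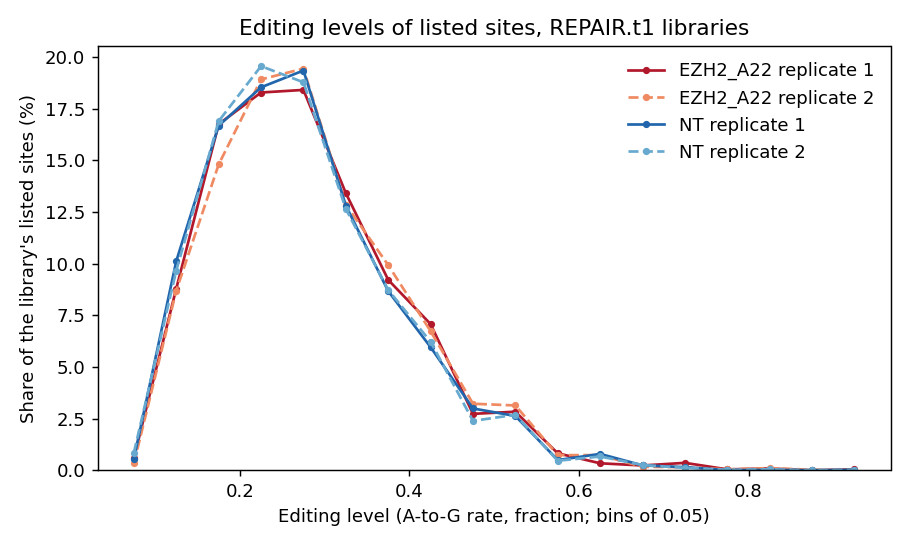
Share of each library's listed sites (%) by editing level in bins of 0.05, for the 2 EZH2_A22 and the 2 NT libraries of REPAIR.t1. The 4 curves lie close together with a peak between 0.2 and 0.3, and the EZH2_A22 curves are slightly above the NT curves between 0.3 and 0.45.

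Most sites were listed by 1 library only. Of the 10648 sites, 6096 (57.3%) were in 1 library, 2218 (20.8%) in 2, 1281 (12.0%) in 3 and 1053 (9.89%) in all 4. Sites in all 4 libraries had the highest levels, with a median of 0.292 over sites, against 0.250 for those in 1 library. They were also the ones most often found in the lists of dCas13d-ADAR and REPAIRv2. At least 1 of the 4 libraries of dCas13d-ADAR, whose editor also joins an inactive Cas13 to an ADAR domain, listed 974 (92.5%) of the 1053 sites in all 4 libraries, against 2361 (38.7%) of the 6096 sites in 1 library. Each of those libraries alone listed 77.2% to 78.6% of the 1053 sites. REPAIRv2, whose 4 lists held 205 distinct sites, listed 113 (10.7%) of the sites in all 4 and 18 (0.295%) of those in 1.

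Libraries with the same guide shared about as many sites as libraries with different guides. The 2 EZH2_A22 libraries had 2139 sites in common, which is 44.9% of the replicate 1 list and 44.7% of the replicate 2 list. The 2 NT libraries had 1992 in common, or 42.5% and 45.7% of their lists. The 4 pairs of an EZH2_A22 with an NT library had 1949 to 2150 in common. The longest overlap, 2150 sites, was between EZH2_A22 replicate 1 and NT replicate 1. It held 45.1% of the EZH2_A22 list and 45.9% of the NT list.

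Positions listed with 1 guide alone were found for both guides. There were 406 sites in both EZH2_A22 libraries and no NT library, which made up 8.52% and 8.49% of the EZH2_A22 lists. There were 338 sites in both NT libraries and no EZH2_A22 library, or 7.22% and 7.76% of the NT lists. The 4 combinations of 1 EZH2_A22 and 1 NT library, with the other library of each guide missing, held 310 to 417 sites, a range that takes in both numbers. The median level of the EZH2_A22-only sites was 0.266 (quartiles 0.202 and 0.350), against 0.244 (quartiles 0.191 and 0.305) for the NT-only sites, with 13 and 9 of them at a mean level of at least 0.5. Listing is not tested here, because the lists hold no coverage.

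**Figure D2:**
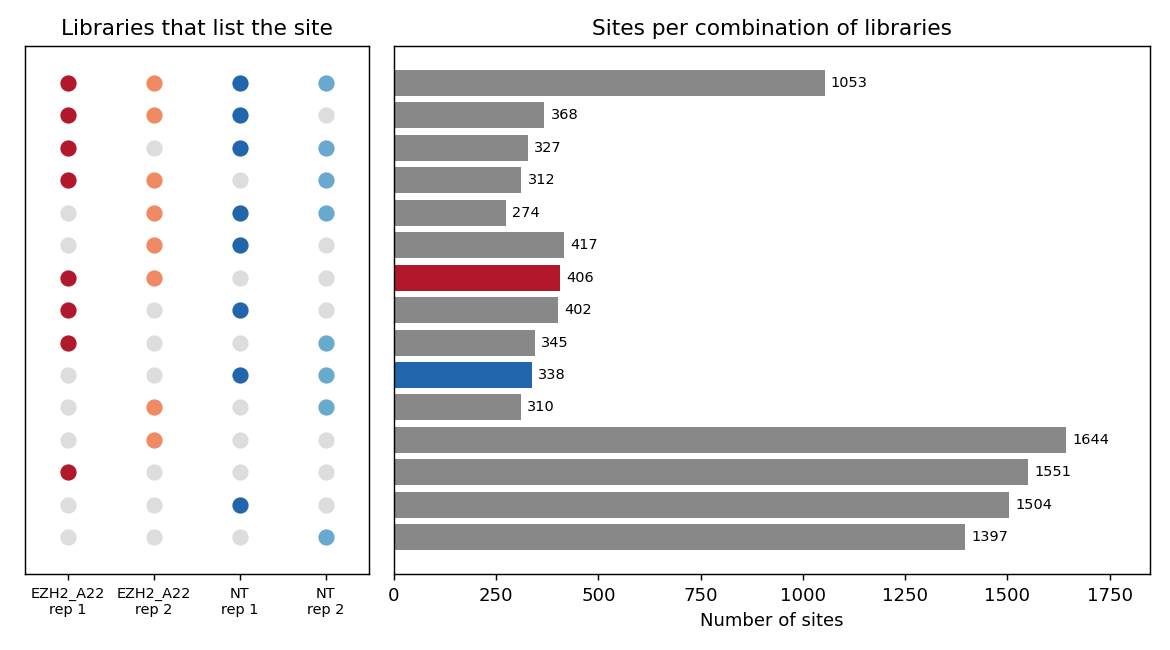
Number of sites (horizontal axis) for each combination of the 4 REPAIR.t1 libraries, with coloured dots on the left for the libraries that list the site. The red bar (406 sites in both EZH2_A22 libraries alone) and the blue bar (338 in both NT libraries alone) lie among the other combinations of 2 libraries, at 310 to 417 sites.

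Some of these sites had a site of the other guide nearby. Of the 406 EZH2_A22-only sites, 62 (15.3%) had a site of an NT list within 50 bases and 206 (50.7%) within 1000 bases. Of the 338 NT-only sites, 53 (15.7%) had a site of an EZH2_A22 list within 50 bases and 163 (48.2%) within 1000. For comparison, sites in exactly 1 EZH2_A22 library and no NT library had an NT site within 50 bases in 13.8% of cases and within 1000 bases in 45.3%. Sites in exactly 1 NT library and no EZH2_A22 library had an EZH2_A22 site within 50 bases in 14.8% of cases and within 1000 bases in 45.9%.

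The EZH2_A22-only sites of highest level were looked up in the lists of dCas13d-ADAR. The highest was position 426611 on chromosome 16, at 0.9 and 0.667 in the EZH2_A22 libraries. It was listed in both dCas13d-ADAR EZH2 libraries, at 0.467 and 0.5, and in 1 dCas13d-ADAR NT library, at 0.562. Position 426607 on the same chromosome, 4 bases away, was the third, at 0.5 and 0.727, and 1 dCas13d-ADAR EZH2 library listed it at 0.4. The second, position 212277496 on chromosome 1, stood at 0.714 and 0.8 in the EZH2_A22 libraries of REPAIR.t1. In dCas13d-ADAR it was in 1 EZH2 library at 0.667 and in 1 NT library at 0.4. Position 30087074 on chromosome 13 stood at 0.647 and 0.5, and all 4 dCas13d-ADAR libraries listed it, at 0.647 and 0.455 with EZH2 and 0.368 and 0.571 with NT. Of all 406 EZH2_A22-only sites, 282 (69.5%) were in a dCas13d-ADAR list. Of the 10 highest, which had mean levels of 0.515 to 0.783, 9 were in such a list. The exception was position 93212330 on chromosome 11, at 0.5 and 0.6 in the EZH2_A22 libraries.

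The highest NT-only site was position 43100400 on chromosome 6, at 0.636 and 0.571 in the NT libraries. The next were position 15233988 on chromosome 19 (0.643 and 0.5) and position 50791413 on chromosome 15 (0.636 and 0.5). On chromosome 10 the neighbouring positions 14881928 and 14881929 were both among the 10 highest, at mean levels of 0.502 and 0.5. Of all 338 NT-only sites, 217 (64.2%) were in a dCas13d-ADAR list. The 10 highest had mean levels of 0.497 to 0.604, and 7 of them were in such a list. The top of the EZH2_A22-only list thus reached a higher level than the top of the NT-only list.

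Read in the dCas13d-ADAR libraries, which did not choose them, the EZH2_A22-only sites were listed no more often with EZH2 than with NT. The dCas13d-ADAR EZH2 libraries listed 42.4% and 39.7% of the 406 sites, against 44.1% and 44.1% in the dCas13d-ADAR NT libraries. For the 338 NT-only sites the shares were 38.5% and 35.2% in the dCas13d-ADAR EZH2 libraries, against 34.3% and 40.2% in its NT libraries. Among the 406 EZH2_A22-only sites, 1 was in both dCas13d-ADAR EZH2 libraries and neither NT library, and 15 were in both NT libraries and neither EZH2 library. Of the 338 NT-only sites, 10 were in both dCas13d-ADAR EZH2 libraries alone and 6 in both NT libraries alone. The shares of all sites with these patterns are not given here, so the counts cannot be read as a guide effect. The labels name the guide EZH2 for dCas13d-ADAR and EZH2_A22 for REPAIR.t1, so these may be different guides. REPAIRv2 was run with EZH2_A22 itself. Its EZH2_A22 libraries listed 0 and 4 of the 406 sites, against 1 and 1 in its NT libraries, in lists of 87 and 101 against 46 and 46 sites.

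At the 1053 sites listed in all 4 libraries the set of sites is the same for both guides, and levels were still slightly higher with EZH2_A22. The mean level was 0.310 and 0.306 in the EZH2_A22 libraries, against 0.301 and 0.298 in the NT libraries. The means were 0.308 ± 0.00270 with EZH2_A22 and 0.299 ± 0.00240 with NT (SD, n = 2 each), a difference of 0.00883 with an exact permutation p of 0.333. Leaving out EZH2_A22 replicate 1 gave a difference of 0.00559, over the sites listed in all remaining libraries instead of these 1053. The median level at the 1053 sites was 0.292 and 0.286 with EZH2_A22, against 0.286 and 0.279 with NT, so the guides met at 0.286 (difference 0.00630, exact permutation p = 0.667). Highly edited sites numbered 91 and 91 with EZH2_A22, against 79 and 70 with NT. The mean level over 2 libraries was higher with EZH2_A22 at 577 sites (54.8%) and lower at 475 (45.1%). This share was largest among sites with a mean level of 0.4 to 0.5 over the 4 libraries, where 85 of 133 sites (63.9%) were higher with EZH2_A22, at a median difference of 0.0319. Above 0.5 it was 22 of 42 (52.4%), and in the 3 bins below 0.4 it was 50.2% to 56.7%. These bins were set for description only.

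The level of a single site differed between libraries of 1 guide about as much as between libraries of different guides. At these 1053 sites the median absolute difference was 0.0633 between the 2 EZH2_A22 libraries and 0.0619 between the 2 NT libraries. Between an EZH2_A22 and an NT library it was 0.0625 to 0.0668 over the 4 pairs. The correlation of levels across these 1053 sites was 0.603 within EZH2_A22, 0.618 within NT and 0.595 to 0.638 between guides (Pearson's r, across sites, which are not independent replicates; all 4 libraries share the cell line and the editor). The spread grew with the level. Below 0.2 the median absolute difference was 0.0385 within EZH2_A22 and 0.0405 within NT, and above 0.5 it was 0.140 and 0.109.

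Site by site, no change of level with the EZH2_A22 guide was detected. With limma fitted to the log2 odds of the level, 0 of 1053 sites (0%) had a Benjamini-Hochberg adjusted p under 0.05, and the smallest was 0.539. Before adjustment 61 sites (5.79%) were under 0.05, with 44 (4.18%) higher and 17 (1.61%) lower with EZH2_A22. The level difference, EZH2_A22 minus NT, had a 5th percentile of -0.114 and a 95th percentile of 0.132, and 881 sites (83.7%) differed by at most 0.1. The median standard error of a site's difference was 0.48 on the log2 odds scale, so a site needed a large difference to pass. limma drew each site's spread towards that of all sites, and the standard errors lay between 0.469 and 0.616. A site's standard error therefore says little about how closely its own libraries agreed. Both EZH2_A22 libraries were above both NT libraries at 183 of the 1053 sites (17.4%) and below both at 137 (13.0%).

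**Figure D3:**
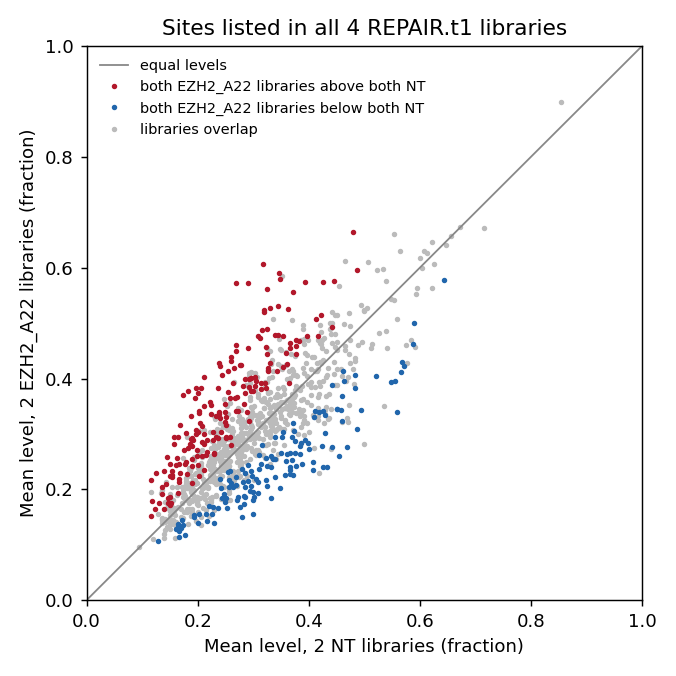
Mean level of each of the 1053 sites listed in all 4 libraries, over the 2 EZH2_A22 libraries (vertical, fraction) and the 2 NT libraries (horizontal, fraction). Red marks the 183 sites with both EZH2_A22 libraries above both NT libraries, blue the 137 sites with both below, and grey the rest, with the line of equal levels.

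Over all 1053 sites the mean level was at least 0.2 higher with EZH2_A22 at 9 sites and at least 0.2 lower at 2. The sites described next are the 10 largest differences in each direction among sites whose EZH2_A22 and NT levels did not overlap, so larger differences with overlapping libraries are not among them. None passed the test. Position 133307743 on chromosome 5 stood at 0.7 and 0.444 with EZH2_A22, against 0.190 and 0.348 with NT. Its log2 odds differed by 1.90 (SE 0.52, limma adjusted p = 0.539), and its EZH2_A22 levels lay far apart. In dCas13d-ADAR this position was listed in both EZH2 libraries, at 0.316 and 0.286, and in neither NT library. In REPAIRv2 it was in 1 NT library, at 0.188. Position 10421104 on chromosome 19 stood at 0.714 and 0.5 with EZH2_A22, against 0.222 and 0.412 with NT (limma adjusted p = 0.539). In dCas13d-ADAR it was high with either guide, at 0.643 and 0.737 with EZH2 and 0.562 and 0.769 with NT.

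Position 57505169 on chromosome 16 had libraries that agreed closely within each guide. It stood at 0.538 and 0.607 with EZH2_A22, against 0.312 and 0.269 with NT, a log2 odds difference of 1.68 (SE 0.47, limma adjusted p = 0.539). In dCas13d-ADAR the order was the other way round, at 0.538 and 0.517 with EZH2 and 0.657 and 0.733 with NT. REPAIRv2 listed this position in both EZH2_A22 libraries, at 0.296 and 0.364, and in neither NT library. Position 16723333 on chromosome 1 stood at 0.538 and 0.643 with EZH2_A22, against 0.345 and 0.348 with NT (limma adjusted p = 0.837). It too was in the opposite order in dCas13d-ADAR, at 0.423 and 0.407 with EZH2 and 0.5 and 0.433 with NT. The fifth smallest p was at position 48890227 on chromosome 8, at 0.423 and 0.333 with EZH2_A22 and 0.188 and 0.179 with NT (limma adjusted p = 0.837).

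The other 6 of these 10 sites lay at 82535799 and 66043779 on chromosome 11, 38121875 on chromosome 6, 70279821 on chromosome X, 7479968 on chromosome 17 and 42980681 on chromosome 22. Their mean levels differed by 0.197 to 0.238. At position 38121875 on chromosome 6 the EZH2_A22 libraries stood at 0.588 and 0.571, against 0.385 and 0.312 in the NT libraries. At position 42980681 on chromosome 22 only EZH2_A22 replicate 1 stood out, at 0.542, with EZH2_A22 replicate 2 at 0.2 and the NT libraries at 0.182 and 0.167. Of the 10 sites, 8 were in all 4 dCas13d-ADAR libraries, where 2 were higher and 6 lower with EZH2 than with NT.

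Among sites without overlap the negative differences were smaller in size. Position 49469892 on chromosome 19 stood at 0.267 and 0.412 with EZH2_A22, against 0.641 and 0.476 with NT (log2 odds difference -1.31, SE 0.50, limma adjusted p = 0.837). In dCas13d-ADAR its order was the reverse, at 0.591 and 0.714 with EZH2 and 0.548 and 0.511 with NT. Position 130013836 on chromosome 11 stood at 0.310 and 0.211 with EZH2_A22, against 0.429 and 0.481 with NT. Position 154179281 on chromosome 1 stood at 0.250 and 0.231 with EZH2_A22, against 0.467 and 0.4 with NT. These sites were separated by guide within REPAIR.t1, but none had an adjusted p below 0.837.

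The other 7 lay at 70406641 on chromosome 16, 7149375 on chromosome 17, 56067338 on chromosome 7, 34890888 on chromosome 19, 43148543 on chromosome 6, 55462685 on chromosome 2 and 128305376 on chromosome 9. Their mean levels differed by -0.192 to -0.157. Position 56067338 was the 1 site of these 20 on chromosome 7, and no dCas13d-ADAR list held it. Position 55462685 on chromosome 2 kept its order in the other editor. It stood at 0.429 and 0.364 with EZH2_A22 and 0.590 and 0.520 with NT in REPAIR.t1, and at 0.321 and 0.241 with EZH2 and 0.444 and 0.485 with NT in dCas13d-ADAR. Of the 10 sites, 5 were in all 4 dCas13d-ADAR libraries, where 3 were higher and 2 lower with EZH2.

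**Figure D4:**
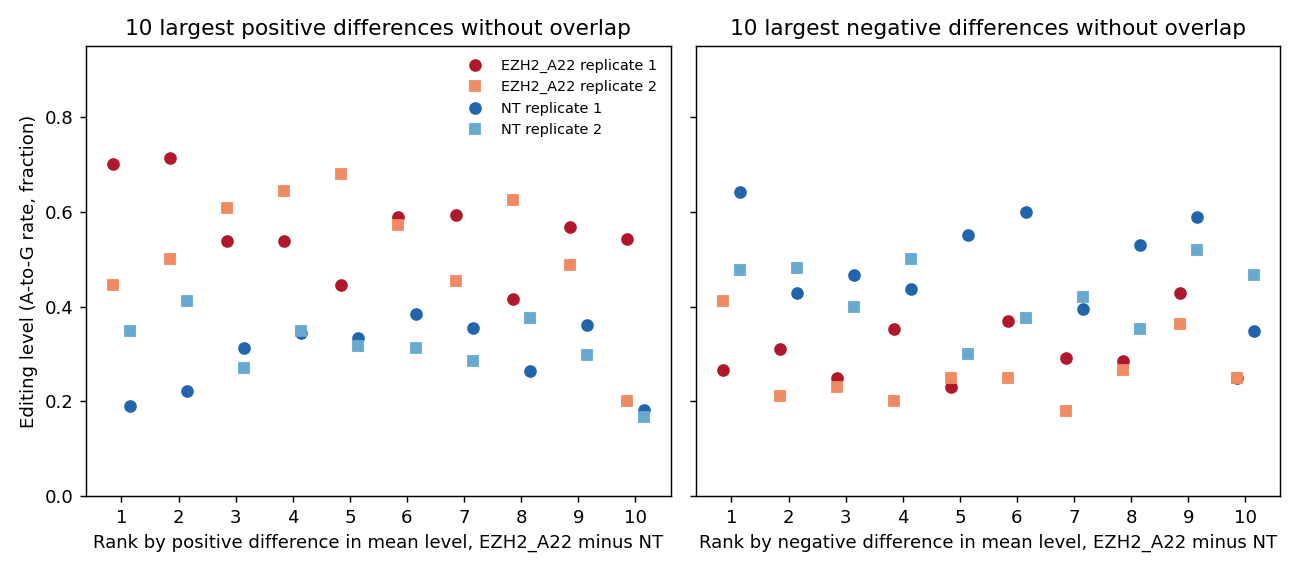
Editing level (vertical, fraction) in each of the 4 REPAIR.t1 libraries at the 10 largest positive (left) and 10 largest negative (right) differences in mean level among sites whose guides did not overlap, ranked by size, EZH2_A22 drawn left of NT at each rank. Positive differences span 0.197 to 0.303 and the largest negative one is -0.219, and at several ranks the 2 libraries of a guide lie as far apart as the guides.

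The sites of highest level stood at similar levels with either guide. Position 195778213 on chromosome 3 was the highest of the sites in all 4 libraries, at 0.917 and 0.882 with EZH2_A22 and 0.8 and 0.909 with NT. Position 156209533 on chromosome 1 stood at 0.655 and 0.636 with EZH2_A22, against 0.636 and 0.609 with NT, and position 115273010 on chromosome 1 at 0.651 and 0.6, against 0.632 and 0.595. At these 3 sites the ranges of the guides overlapped or touched. Over the 10 highest sites, with mean levels of 0.611 to 0.877, the difference EZH2_A22 minus NT lay between -0.0665 and 0.0450.

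Sites sorted by their order in REPAIR.t1 were split about evenly in dCas13d-ADAR, whose libraries had no part in the sorting. Of the 183 sites higher without overlap in REPAIR.t1, 110 were in all 4 dCas13d-ADAR libraries, and 56 (50.9%) of these had a higher mean level with EZH2 there. Of the 137 lower sites, 78 were in all 4, and 40 (51.3%) had a higher mean level with EZH2. Over all 609 sites in the 8 libraries of both editors this share was 48.9%. Tested directly, the guide effect in REPAIR.t1 minus that in dCas13d-ADAR had a limma adjusted p under 0.05 at 0 of 609 sites (0%). Before adjustment 41 sites (6.73%) were under 0.05, and the smallest limma adjusted p was 0.204.

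The share of sites on chromosome 7 did not separate the guides. Chromosome 7, which carries EZH2, held 4.39% and 4.70% of the sites in the EZH2_A22 libraries, against 4.57% and 4.91% in the NT libraries. The difference was -0.196 percentage points (exact permutation p = 0.667), and the libraries overlapped. Of the 406 EZH2_A22-only sites 19 (4.68%) were on chromosome 7, against 21 (6.21%) of the 338 NT-only sites. The highest of the 19 were position 129395729, at 0.357 and 0.385 in the EZH2_A22 libraries, and position 128597331, at 0.357 and 0.350, and neither was in a dCas13d-ADAR list. They were followed by positions 44089838, 157208947 and 128850379, at mean levels of 0.333 to 0.335. The highest of the 21 NT-only sites on chromosome 7 were position 140153923, at 0.6 and 0.368 in the NT libraries, position 103807291 (0.412 and 0.4), position 148464786 (0.286 and 0.5), position 99054855 (0.308 and 0.385) and position 148507436 (0.333 and 0.333). On this chromosome the NT-only sites thus reached higher levels than the EZH2_A22-only sites.

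The share of sites was higher in both EZH2_A22 libraries than in both NT libraries for 6 of 23 chromosomes (26.1%) and lower for 5 (21.7%). Chromosome 16 had the largest positive difference, with 4.97% and 5.205% of the EZH2_A22 lists against 4.48% and 4.57% of the NT lists. It held 34 of the 406 EZH2_A22-only and 14 of the 338 NT-only sites, and 539 of all 10648 sites. These counts come from the same lists that singled it out among 23 chromosomes, so they are not separate evidence. Chromosome X had the largest negative difference, with 3.97% and 4.26% with EZH2_A22 against 4.61% and 4.91% with NT. Each chromosome's difference was under 1 percentage point, and none could pass the exact test with 2 libraries per guide.

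**Figure D5:**
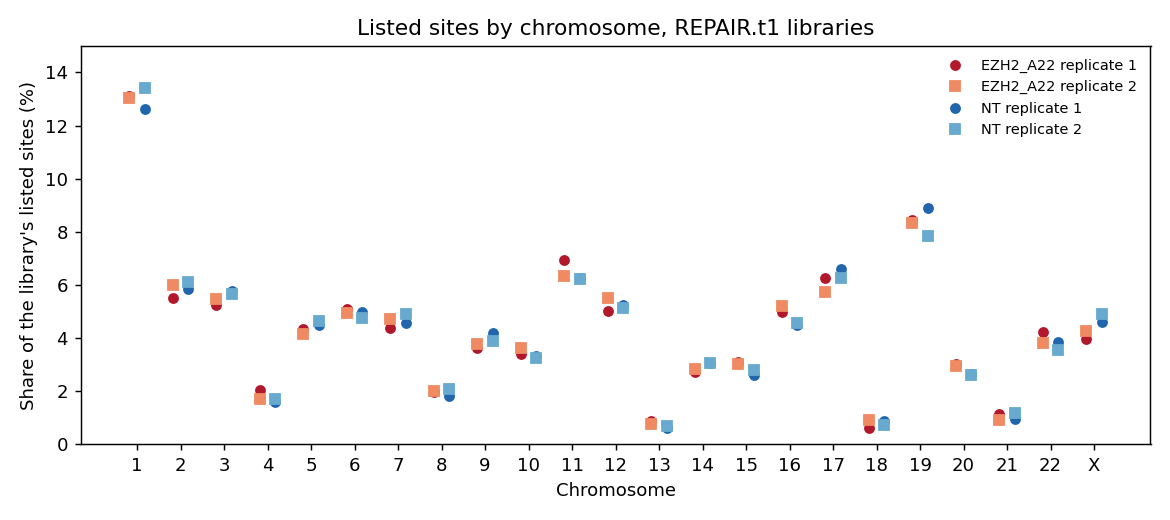
Share of each library's listed sites (%) on each chromosome, with the EZH2_A22 libraries drawn left of the NT libraries. Chromosome 7 held 4.39% and 4.70% with EZH2_A22 and 4.57% and 4.91% with NT, and the largest separations were on chromosomes 16 and X.

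Sites also lay close to one another. Another site of the same list was within 50 bases for 22.06% and 22.01% of the sites in the EZH2_A22 libraries, against 21.4% and 20.6% in the NT libraries. The difference of 1.04 percentage points had an exact permutation p of 0.333, and it was 0.682 without NT replicate 2. This share can grow with the length of a list, and the EZH2_A22 lists were longer, so the part of list length in it was not tested. Adjacent bases were listed for 3.002% and 2.78% of sites with EZH2_A22 and 2.93% and 2.98% with NT. Chaining sites at most 50 bases apart over the 4 lists gave 8937 groups, of which 7594 were single sites. Of the 1343 groups of 2 or more sites, 976 (72.7%) held sites of both guides.

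The groups with most members, of 6 or 7 sites, were listed with both guides. The 7 sites between 242625186 and 242625249 on chromosome 2 were listed 1 and 5 times with EZH2_A22, against 3 and 4 times with NT, at mean levels of 0.143 and 0.165 against 0.189 and 0.194. The 7 sites between 39710719 and 39710812 on chromosome 22 were listed 7 and 4 times with EZH2_A22, against 5 and 5 times with NT, at mean levels of 0.136 and 0.216 against 0.147 and 0.214. The next groups, of 6 sites each, lay at 72491603 to 72491641 on chromosome 15, 32868569 to 32868655 on chromosome 20 and 23502779 to 23502866 on chromosome 14. Groups of 6 sites also lay at 57020332 to 57020422 on chromosome 20 and 156219890 to 156219997 on chromosome 1, and each of these held 1 EZH2_A22-only site. The other 5 groups held no guide-only site. Means of the library means were 0.165 to 0.233 in those 5 groups, and 0.260 on chromosome 20 and 0.342 on chromosome 1 in the groups with an EZH2_A22-only site. The chromosome 1 value takes in NT replicate 1, which listed 1 site there, at 0.484. In that group the EZH2_A22 libraries stood at 0.295 and 0.315, and NT replicate 2 at 0.274. Among the 1343 groups of 2 or more sites, 13 held at least 2 EZH2_A22-only sites and 4 held at least 2 NT-only sites. There were 406 EZH2_A22-only and 338 NT-only sites to fall in groups, and the difference in counts was not tested.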

How the data were processed

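RNA of HEK293T cells carrying REPAIR.t1 was sequenced from polyadenylated RNA after TRIzol extraction, per the labels' protocols. Each deposited list gives chromosome, position and A-to-G rate per site. The authors' A-to-G rate is a fraction, named in the file headers. The submitters' processing notes name cutadapt, STAR 2.6.1b, hg19 and GRCh37 without a role. The site caller is not given in the sources used here, nor are its thresholds or any removal of genomic variants. The lowest level in the 4 lists was 0.0645. The fraction was used as deposited.

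Groups come from the titles. Each single value per library got an exact, two-sided permutation test (6 arrangements). Sites in all 4 libraries were tested in limma 3.58.1 (R 4.3.3) on the log2 odds (0.01 was added above and below the line), and a guide-by-editor term was fitted over 8 libraries. The limma test was tried on simulated data with the same spread at every site, and no result above rests on it. Tables were handled in Python 3.11.15 with numpy 2.4.6 and pandas 2.3.3, and figures drawn with matplotlib 3.10.9. No read counts are in the lists, so no counting interval is given.

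The members, the measures and the naming rule were chosen with earlier results of these data known. Sites were named as the 10 largest differences in each direction among those without overlap, the 10 highest in all 4 libraries, the 10 highest guide-only sites and the 5 highest on chromosome 7 for each guide, the 5 smallest p-values, and the 5 largest groups within 50 bases, with 2 tied groups added after their values were seen. Only some of the highest sites are printed. Sites were not assigned to genes, so whether any named site lies in EZH2 or another PRC2 gene was not analysed here. Alternatives were minimum levels of 0.1 and 0.2, each library left out, the replicate number as a block, other scales and distances.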

Additional observations from a re-analysis of the deposited data

Results flagged for a closer look

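The share of highly edited sites (0.5 or more) differed between guides in opposite directions in the 2 editors, with no overlap of libraries in either. It was 0.609 percentage points higher with EZH2_A22 than with NT in REPAIR.t1. In dCas13d-ADAR it was lower with EZH2, at 6.36% and 6.51% against 6.89% and 7.77% with NT, a difference of -0.896 percentage points. The difference between the editors, 1.51 points, had an exact permutation p of 0.0556 with labels permuted within each editor, the smallest that 36 arrangements allow. It was 1 of 5 measures compared in this way. The others had exact permutation p-values of 0.111 (median level), 0.111 (share with a neighbour within 50 bases), 0.278 (chromosome 7 share) and 0.5 (number of sites).

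Of the 10 largest positive and the 10 largest negative differences without overlap, 8 and 5 sites were in all 4 dCas13d-ADAR libraries. At 6 of these sites the guides were separated one way in REPAIR.t1 and the other way in dCas13d-ADAR, without overlap in either. Over all sites without overlap in REPAIR.t1 this held for 19 of 110 higher sites (17.3%) and 10 of 78 lower sites (12.8%), against 18.4% lower and 12.5% higher without overlap in dCas13d-ADAR over all 609 sites. Position 57505169 on chromosome 16 differed by 0.282 in REPAIR.t1 and by -0.167 in dCas13d-ADAR (EZH2 guide minus NT). Position 16723333 on chromosome 1 differed by 0.244 and by -0.0514, and position 66043779 on chromosome 11 by 0.203 and by -0.0940. Position 49469892 on chromosome 19 differed by -0.219 in REPAIR.t1 and by 0.123 in dCas13d-ADAR, position 7149375 on chromosome 17 by -0.185 and 0.126, and position 34890888 on chromosome 19 by -0.174 and 0.0302. In limma the difference between editors at these sites had adjusted p-values of 0.204 to 0.791, so none passed, and the sites were picked for a large difference in REPAIR.t1.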

How the results depend on the processing

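No site passed an adjusted p of 0.05 in limma under any of the 12 alternatives run, including the 4 that left out a library, where the lone library of a guide was assumed to vary like the others. Over these alternatives the smallest adjusted p was 0.138 to 0.960, and 29 to 116 sites, of 609 to 2334 tested, were below an unadjusted 0.05. With the replicate number as a block, 0 sites passed in limma (62 before adjustment, smallest adjusted p 0.138), and the ratio of site numbers had an exact permutation p of 0.5 within pairs. The replicate block changed no call. The labels do not say whether same-numbered libraries were paired. The correlation of their deviations, 0.0486 over 1053 sites, cannot show whether they were. The difference of the guide effect between editors had 0 sites in limma in its 3 alternatives, with 31 to 41 at an unadjusted p below 0.05. With 1 library left out, the ratio of site numbers was 1.02 to 1.10 and the difference in median level 0.0109 to 0.0132. The difference in mean level, at the sites listed in all remaining libraries, was then 0.00559 to 0.0104. The difference in the share with a neighbour was 0.682 to 1.40 percentage points, and that in the chromosome 7 share -0.368 to -0.0246 percentage points. The difference in median level was 0.00526 at a minimum level of 0.2 and 0.00630 at sites in all 4 libraries (exact permutation p = 0.667), against 0.0120 over whole lists. Directions of the single values per library held under all alternatives run, and none could pass the exact test. At a minimum level of 0.2 the share of EZH2_A22-only sites in dCas13d-ADAR EZH2 libraries minus that in its NT libraries was -4.68 percentage points, against -3.08 without a minimum, and the cause was not tested.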
